A study of Homo sapiens with 12 samples.

Results

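Major histocompatibility complex (MHC) class I molecules were followed at the transcript level in MIA PaCa-2, a human pancreatic carcinoma cell line, with and without the secreted protease inhibitor TIMP-1. The genes were the heavy chains HLA-B, HLA-C, HLA-E, HLA-F and HLA-G, the shared light chain B2M and the class I transactivator NLRC5. They were taken by symbol from the deposited expression table, whose 63086 genes held all 7 of them. The members were chosen with earlier results of these data known. Of the 7 genes, 6 reached a mean normalised count of 10 over the libraries, as did 15987 genes in all, and were tested. HLA-G did not reach it. Other class I heavy chain genes were not analysed here.

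A set of 4 lines of MIA PaCa-2 cells were compared by bulk RNA sequencing of total RNA, with 3 libraries per line labelled as biological replicates, 12 in all. WT cells were not modified. CRISPR Control cells had gone through the same editing procedure and carried a silent change in TIMP1 that leaves the protein sequence as it was. TIMP1 KO 1 and TIMP1 KO 2 were knockout clones made by CRISPR-Cas9 with 2 guides to different regions of exon 4 of TIMP1. Every line was grown in the same serum-containing medium with no further treatment. Because each knockout line was 1 clone, the 3 libraries of a line measured the spread between cultures of that clone and not between independent edits, and what a clone carried besides the TIMP1 edit cannot be told apart from the edit. The study compared the lines to find genes whose expression depended on TIMP-1. In what follows, WT and CRISPR Control are called TIMP1-competent and the 2 knockout lines TIMP1-deficient.

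A class I molecule consists of a polymorphic heavy chain, the light chain beta-2-microglobulin and a short peptide, and it shows fragments of a cell's own proteins to CD8 T cells. HLA-B and HLA-C are classical heavy chains that present peptides to T cells and are also read by receptors of natural killer cells. HLA-E, HLA-F and HLA-G are non-classical: HLA-E presents leader peptides of other class I chains to the natural killer cell receptor NKG2A, and HLA-G is found mainly at the placenta. Peptides are cut by the proteasome, carried into the endoplasmic reticulum by the transporter TAP and trimmed by ERAP enzymes. NLRC5 has no DNA-binding domain of its own and acts at class I promoters through factors bound there, and interferons raise class I transcription through STAT and IRF factors. Tumours commonly lower class I, which hides them from T cells.

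The targeted gene was checked first. TIMP1 (ENSG00000102265.12, chromosome X, 47582408 to 47586789, plus strand, GRCh38) was at 3837, 3290 and 3532 normalised counts in WT replicates 1, 2 and 3, at 2285, 2826 and 2959 in CRISPR Control, at 1562, 1624 and 1613 in TIMP1 KO 1 and at 1136, 1192 and 1155 in TIMP1 KO 2. All 6 TIMP1-deficient libraries lay below all 6 TIMP1-competent ones, as the labels give it. Mean TIMP1 transcript was 75.7% of the WT mean in CRISPR Control, 45.02% in TIMP1 KO 1 and 32.7% in TIMP1 KO 2. The transcript was therefore reduced and not lost, and the protein was not measured in these files. The study reports a frame-shift mutation in each knockout clone, read by Sanger sequencing. The libraries held 26908701 to 36093563 reads in genes, and replicates of a line correlated across genes at r = 0.990 to 0.993. Replicates of CRISPR Control scattered most, with a chi-square per gene between replicate pairs of 18.2 to 29.7, against 5.37 to 12.2 in WT. It was 4.6 to 6.0 in TIMP1 KO 1 and 7.28 to 16.0 in TIMP1 KO 2. The fit used below shares its spread per gene over all lines and does not carry this difference. A list of 6 carcinoma markers summed to 265785 to 286127 normalised counts in WT, 107503 to 135643 in CRISPR Control, 308109 to 315239 in TIMP1 KO 1 and 250115 to 270632 in TIMP1 KO 2, so the sum was lowest in CRISPR Control. KRT8, KRT18 and VIM made up most of it, and single markers went other ways: the adhesion protein CDH1 averaged 1189 in WT and 1424 in CRISPR Control against 128 and 84.9 in the knockout lines, and the keratin KRT19 averaged 15707 in WT and 52497 in TIMP1 KO 2. The comparisons of the knockout lines with WT do not use the CRISPR Control means.

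The upstream sequences of the class I genes show what the members share in their promoters. The 250 bases before the RefSeq transcription start (GRCh38.p14) are given for the 5 of 7 members with an entry, in the direction of transcription. They are reference sequence, and the alleles of MIA PaCa-2 were not read. Capitals mark matches on either strand to 3 motifs: TTTCNNTT, the core bound by IRF factors, TGACG, a CRE-like core bound by CREB and ATF factors, and CCAAT, bound by NF-Y. HLA-E and NLRC5 are named only.
HLA-B promoter, GRCh38.p14 chr6:31357180-31357429, minus strand: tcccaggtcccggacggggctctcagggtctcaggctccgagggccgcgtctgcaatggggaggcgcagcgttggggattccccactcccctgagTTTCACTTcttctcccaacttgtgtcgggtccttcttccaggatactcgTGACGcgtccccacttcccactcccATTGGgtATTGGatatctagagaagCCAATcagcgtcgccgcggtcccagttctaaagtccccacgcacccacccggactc
HLA-C promoter, GRCh38.p14 chr6:31272093-31272342, minus strand: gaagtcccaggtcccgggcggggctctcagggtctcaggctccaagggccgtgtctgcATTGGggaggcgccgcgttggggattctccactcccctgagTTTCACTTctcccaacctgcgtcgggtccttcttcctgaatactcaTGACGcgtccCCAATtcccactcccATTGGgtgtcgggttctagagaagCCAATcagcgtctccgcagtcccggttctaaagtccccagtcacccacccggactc
HLA-F promoter, GRCh38.p14 chr6:29723184-29723433, plus strand: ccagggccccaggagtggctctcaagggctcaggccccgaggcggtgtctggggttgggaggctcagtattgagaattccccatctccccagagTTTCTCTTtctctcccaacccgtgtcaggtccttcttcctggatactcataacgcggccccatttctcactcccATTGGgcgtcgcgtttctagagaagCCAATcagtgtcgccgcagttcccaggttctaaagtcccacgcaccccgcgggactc
HLA-G promoter, GRCh38.p14 chr6:29827575-29827824, plus strand: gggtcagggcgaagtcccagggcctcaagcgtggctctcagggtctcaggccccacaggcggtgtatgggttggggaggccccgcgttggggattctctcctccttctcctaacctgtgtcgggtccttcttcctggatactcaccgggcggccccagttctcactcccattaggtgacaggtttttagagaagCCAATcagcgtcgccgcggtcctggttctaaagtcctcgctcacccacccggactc
B2M promoter, GRCh38.p14 chr15:44711267-44711516, plus strand: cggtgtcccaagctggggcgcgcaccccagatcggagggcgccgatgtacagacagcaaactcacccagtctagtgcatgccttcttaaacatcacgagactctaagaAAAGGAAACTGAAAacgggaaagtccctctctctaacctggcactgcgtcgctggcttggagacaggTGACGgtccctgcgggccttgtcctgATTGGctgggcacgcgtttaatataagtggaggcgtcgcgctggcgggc

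HLA-B and HLA-C were the most alike of these promoters, with 88.98% identical positions in a pairwise alignment, and HLA-F was 80.39% identical to HLA-B. The B2M promoter was 47.22 to 51.39% identical to the heavy chain promoters. An IRF core stood at bases -155 to -148 from the start in HLA-B, at -151 to -144 in HLA-C and at -156 to -149 in HLA-F. B2M held 2 IRF cores that overlap each other, from -142 to -129, on the opposite strand. None was found in the HLA-G window. A CRE-like core was present in HLA-B, HLA-C and B2M and not in the HLA-F or HLA-G window. A CCAAT box was present in all 5, with 3 matches in HLA-B, 4 in HLA-C, 2 in HLA-F and 1 each in HLA-G and B2M. Matches to different motifs did not overlap. Among 35116 RefSeq promoters of the same length, 20.31% held an IRF core, 21.22% a CRE-like core and 32.01% a CCAAT box, and 1.193% held all 3. These matches are letters in a reference window, and binding was not measured.

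**Figure D1:**
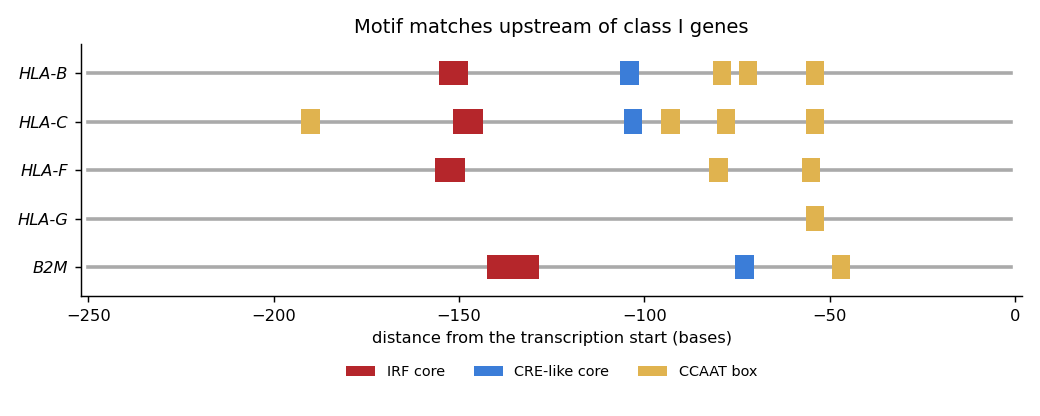
Motif matches in the 250 bases upstream of HLA-B, HLA-C, HLA-F, HLA-G and B2M (x axis, bases from the transcription start; coloured boxes, matches drawn to scale). HLA-B, HLA-C and HLA-F have an IRF core at nearly the same distance from the start, from -156 to -144, and HLA-G has 1 CCAAT box and neither of the other motifs.

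The class I genes were higher in both TIMP1-deficient lines than in WT, and higher in TIMP1 KO 2 than in TIMP1 KO 1. All 6 tested members passed the threshold upward in TIMP1 KO 1 against WT (limma with Benjamini-Hochberg adjustment, adjusted p below 0.05), where 18.0% of all tested genes were called higher, 17.5% lower and 35.5% in either direction. All 6 were also called higher in TIMP1 KO 2 against WT, where 27.1% of tested genes were called higher, 27.9% lower and 55.0% in either direction. In CRISPR Control against WT, 2 of the 6 were called higher and none lower, where 27.2% of tested genes were called higher, 26.3% lower and 53.4% in either direction. The median log2 fold change of the 6 members was 1.32 in TIMP1 KO 1, 2.92 in TIMP1 KO 2 and 0.04 in CRISPR Control, and the median of all tested genes lay between -0.01 and 0.01 in these comparisons, which share the WT libraries. Every log2 fold change was taken after adding 1 to the value, so those of genes with low counts come out too small. In bulk libraries more cells with a transcript and more transcript per cell cannot be told apart.

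**Figure D2:**
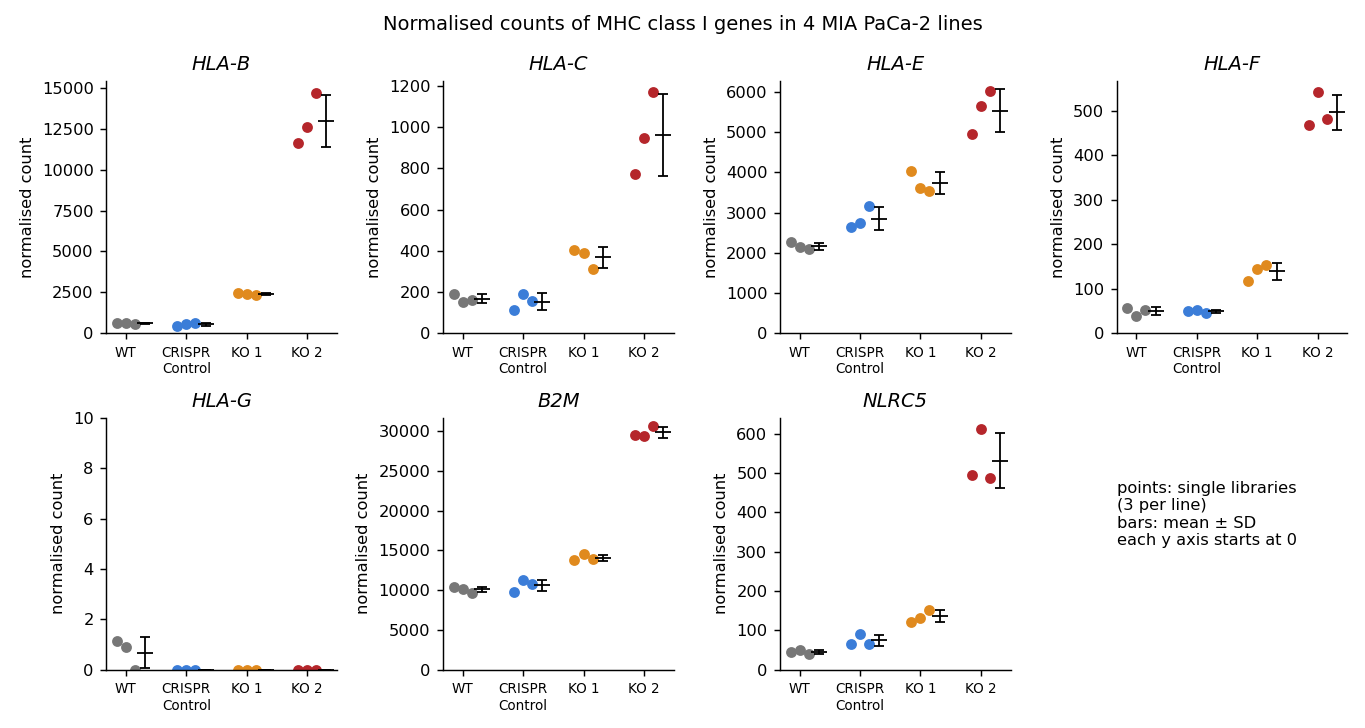
Normalised counts of the 7 class I genes (y axes, each starting at 0) in the 4 lines (x axes); points are single libraries, 3 per line, and bars the mean and SD. For all genes but HLA-G the TIMP1 KO 1 libraries sit above the WT and CRISPR Control libraries, and the TIMP1 KO 2 libraries above those of TIMP1 KO 1.

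HLA-B (ENSG00000234745.14) lies on chromosome 6 at 31353872 to 31367067 on the minus strand, with a main transcript of 8 exons and 1536 bases. The main transcript covers 31353875 to 31357179 of that span. The span overlaps 4 other annotated genes, among them the transcribed pseudogene DHFRP2 on the same strand. How far they bear on the HLA-B count was not tested. Its normalised counts in replicates 1, 2 and 3 were 627, 592 and 576 in WT, 427, 560 and 598 in the CRISPR Control libraries, 2453, 2385 and 2346 in TIMP1 KO 1, and 11612, 12629 and 14722 in TIMP1 KO 2. The WT and CRISPR Control libraries overlapped, each knockout line lay above them, and the 2 knockout lines did not overlap. The mean of 598 ± 26.0 in WT (SD, n = 3) compared with 2395 ± 54.3 in TIMP1 KO 1 and 12988 ± 1585 in TIMP1 KO 2, 4.00-fold and 21.7-fold the WT mean. On the log2 scale HLA-B rose by 2.00 (SE 0.11, limma adjusted p = 3.74e-11) in TIMP1 KO 1 and by 4.43 (SE 0.11, limma adjusted p = 2.33e-16) in TIMP1 KO 2, and this was the largest rise among the tested members in both lines. The difference of CRISPR Control from WT was -0.19 (95% interval -0.42 to 0.03, limma adjusted p = 0.136), and without CRISPR Control replicate 3 it was -0.29 with an adjusted p of 0.0321.

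HLA-C (ENSG00000204525.18, chromosome 6, 31268749 to 31272130, minus strand, 8 exons) is the neighbouring classical heavy chain. Its normalised counts were 190, 149 and 158 in WT, 111, 191 and 156 in CRISPR Control, 403, 390 and 311 in TIMP1 KO 1, and 773, 948 and 1171 in TIMP1 KO 2. The competent lines overlapped each other, and the knockout lines stood above them and apart. Mean HLA-C was 2.22-fold the WT mean in TIMP1 KO 1 and 5.81-fold in TIMP1 KO 2. HLA-C rose by 1.14 on the log2 scale in TIMP1 KO 1 (SE 0.18, limma adjusted p = 5.69e-05) and by 2.52 in TIMP1 KO 2 (SE 0.18, limma adjusted p = 9.55e-10), a smaller rise than that of HLA-B, whose 95% interval of 4.21 to 4.66 in TIMP1 KO 2 did not reach the 2.15 to 2.89 of HLA-C. CRISPR Control differed from WT by -0.14 (95% interval -0.52 to 0.23, limma adjusted p = 0.523). HLA-C had the widest scatter of the tested members in CRISPR Control and TIMP1 KO 2, with a coefficient of variation of 26.1% and 20.7%.

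HLA-E (ENSG00000204592.9, chromosome 6, 30489509 to 30494194, plus strand, 8 exons) is the non-classical chain read by NKG2A. It was at 2257, 2131 and 2099 normalised counts in WT, 2636, 2741 and 3171 in CRISPR Control, 4037, 3601 and 3542 in TIMP1 KO 1, and 4956, 5639 and 6014 in TIMP1 KO 2. No 2 neighbouring lines overlapped, so HLA-E followed the order WT, CRISPR Control, TIMP1 KO 1 and TIMP1 KO 2. Relative to the WT mean of 2162 ± 83.4, HLA-E was 1.32-fold in CRISPR Control, 1.72-fold in TIMP1 KO 1 and 2.56-fold in TIMP1 KO 2. The log2 changes against WT were 0.39 (limma adjusted p = 0.000820), 0.78 (limma adjusted p = 8.65e-07) and 1.35 (limma adjusted p = 2.15e-10). HLA-E thus already differed between the 2 TIMP1-competent lines, and TIMP1 KO 1 exceeded CRISPR Control by 0.39 (limma adjusted p = 0.000663), about as much as CRISPR Control exceeded WT.

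HLA-F (ENSG00000204642.14, chromosome 6, 29722775 to 29738528, plus strand, 7 exons in the main transcript) is a non-classical chain that can reach the surface without peptide. Its normalised counts were low in the competent lines, at 55.5, 39.1 and 52.4 in WT and 50.1, 51.0 and 45.1 in CRISPR Control. The values were 118, 144 and 154 in TIMP1 KO 1 and 467, 542 and 481 in TIMP1 KO 2. The competent lines overlapped fully and the knockout lines stood apart from them and from each other. HLA-F rose 2.83-fold in TIMP1 KO 1 and 10.1-fold in TIMP1 KO 2 in the means, or by 1.49 (limma adjusted p = 8.42e-07) and 3.33 (limma adjusted p = 5.12e-12) on the log2 scale. The difference of CRISPR Control from WT was 0.01 (95% interval -0.34 to 0.35, limma adjusted p = 0.978), and its sign changed under other settings. The long noncoding RNA HLA-F-AS1 overlaps HLA-F on the opposite strand, and the strand setting of the counting is not given in the sources used here. HLA-F-AS1 averaged 1.94 normalised counts in WT and 10.6 in TIMP1 KO 2, against 49.0 and 497 for HLA-F.

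HLA-G (ENSG00000204632.13, chromosome 6, 29826967 to 29831125, plus strand), the placental chain, was not detectable at this depth. WT replicates 1 and 2 had 1 read each, and the other 10 libraries had 0 reads. A count of 0 allows up to 3 reads in a library, so every library was under that limit and no fold is given. The class I genes are close copies of each other, and reads that fit several of them could be dropped or assigned to another copy. The alleles of the cell line also differ from the reference to an unknown extent. How much this moved the count of any single heavy chain was not tested. The pseudogene HLA-H, the only one of 12 class I pseudogenes and antisense RNAs that reached the tested set, averaged 257 ± 33.2 normalised counts in the WT line, 158 ± 9.02 in CRISPR Control, 263 ± 27.3 in TIMP1 KO 1 and 297 ± 42.9 in TIMP1 KO 2. Its log2 changes against WT were 0.04 and 0.21 in the knockout lines and did not pass the threshold, and it was lower in CRISPR Control (log2 change -0.69, limma adjusted p = 0.000297).

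B2M (ENSG00000166710.23, chromosome 15, 44711358 to 44718851, plus strand, 4 exons in the main transcript) encodes the light chain that every class I heavy chain pairs with. Its normalised counts were 10402, 10188 and 9676 in WT, 9801, 11243 and 10773 in CRISPR Control, 13844, 14497 and 13918 in TIMP1 KO 1, and 29522, 29397 and 30632 in TIMP1 KO 2. The competent lines overlapped, and the knockout lines lay above them in 2 separate steps. B2M was 1.40-fold the WT mean in TIMP1 KO 1 and 2.96-fold in TIMP1 KO 2, with log2 changes of 0.48 (SE 0.07, limma adjusted p = 1.59e-05) and 1.57 (SE 0.07, limma adjusted p = 8.43e-13). CRISPR Control differed from WT by 0.07 (95% interval -0.07 to 0.21, limma adjusted p = 0.397). B2M had the smallest scatter of the tested members in TIMP1 KO 2, with a coefficient of variation of 2.28%.

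NLRC5 (ENSG00000140853.17, chromosome 16, 56989485 to 57083531, plus strand, 49 exons in the main transcript) is the transactivator of class I genes. It was at 45.3, 50.0025 and 39.1 normalised counts in WT, 66.5, 91.3 and 65.9 in CRISPR Control, 122, 133 and 153 in TIMP1 KO 1, and 495, 612 and 487 in TIMP1 KO 2. All 4 lines were separate, with CRISPR Control above WT. NLRC5 was 1.67-fold the WT mean in CRISPR Control, 3.03-fold in TIMP1 KO 1 and 11.9-fold in TIMP1 KO 2. Against WT it rose by 0.71 (limma adjusted p = 0.00140), 1.58 (limma adjusted p = 4.84e-07) and 3.54 (limma adjusted p = 2.84e-12) on the log2 scale in these lines. Against CRISPR Control the rise in TIMP1 KO 1 was 0.87 (limma adjusted p = 0.000168). The class II transactivator CIITA, its relative, averaged 8.66 normalised counts in WT and 9.92 in TIMP1 KO 2, a log2 change of 0.17 (limma adjusted p = 0.724).

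**Figure D3:**
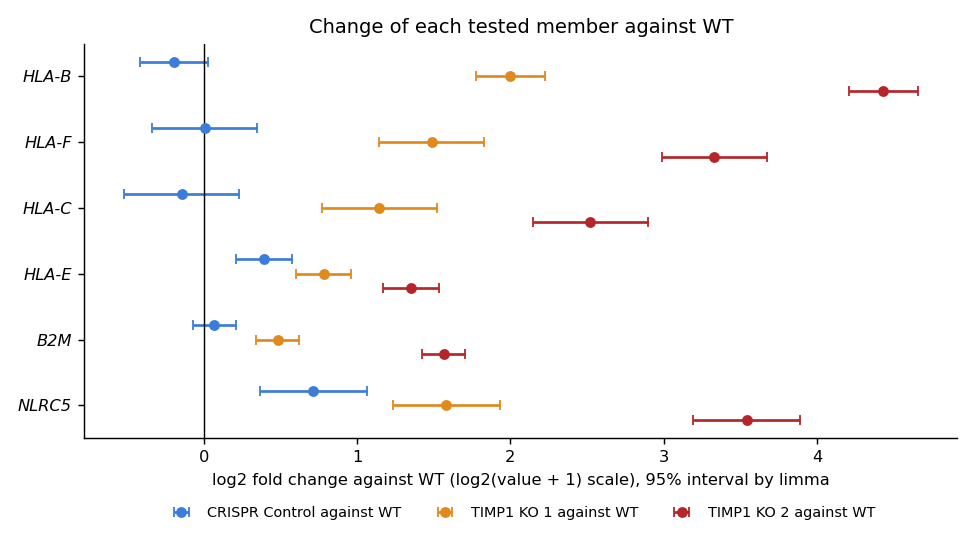
Log2 fold change against WT with its 95% interval by limma (x axis) for the 6 tested class I genes (y axis) in CRISPR Control, TIMP1 KO 1 and TIMP1 KO 2. The intervals of the knockout lines all lie above 0, the estimates running from 0.48 for B2M in TIMP1 KO 1 to 4.43 for HLA-B in TIMP1 KO 2, and those of CRISPR Control include 0 for 4 of the 6 genes.

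CRISPR Control served as a second reference. All 6 tested members were called higher in TIMP1 KO 1 against CRISPR Control, where 31.7% of tested genes were called higher, and in TIMP1 KO 2 against CRISPR Control, where 33.3% were. In the latter comparison the log2 changes were 4.63 for HLA-B, 3.32 for HLA-F, 2.83 for NLRC5, 2.66 for HLA-C, 1.49 for B2M and 0.96 for HLA-E. Scaling to equal library totals moved the median of all genes in it to 0.11, and the smallest of these changes stood well above that shift. Pooling the lines as the study did, all 6 were higher in TIMP1-deficient than in TIMP1-competent lines, as were 32.9% of tested genes, with log2 differences of 3.31 for HLA-B, 2.41 for HLA-F, 2.20 for NLRC5, 1.90 for HLA-C, 0.99 for B2M and 0.87 for HLA-E (limma, largest adjusted p = 3.46e-10). For each of the 6, all 6 TIMP1-deficient libraries lay above all 6 TIMP1-competent ones, which held for 12.3% of all tested genes. The study asked for genes that changed in both knockout lines against WT and not in CRISPR Control. HLA-B, HLA-C, HLA-F and B2M met that rule upward, as did 5.00% of tested genes. HLA-E and NLRC5 did not meet it, because both were called higher in CRISPR Control against WT.

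The 2 knockout clones differed from each other in every tested member. All 6 were called higher in TIMP1 KO 2 than in TIMP1 KO 1, where 18.1% of tested genes were called higher and 38.2% at all. The log2 difference was 2.43 for HLA-B (limma adjusted p = 3.35e-12), 1.96 for NLRC5 (limma adjusted p = 2.94e-08), 1.84 for HLA-F (limma adjusted p = 5.15e-08), 1.38 for HLA-C (limma adjusted p = 6.51e-06), 1.08 for B2M (limma adjusted p = 3.88e-10) and 0.57 for HLA-E (limma adjusted p = 3.66e-05). A stepwise pattern, higher than WT in both clones and higher in TIMP1 KO 2 than in TIMP1 KO 1, held for 6 of 6 tested members and for 4.98% of tested genes. TIMP1 transcript itself was lower in TIMP1 KO 2 than in TIMP1 KO 1 (log2 difference -0.46, limma adjusted p = 0.000398). Whether this difference bears on the class I counts was not tested. Under equal library totals the share of called genes that were higher in TIMP1 KO 2 than in TIMP1 KO 1 moved from 47.4% to 65.5%, and in TIMP1 KO 2 against WT from 49.3% to 59.9%, with all 6 members still called higher.

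The make-up of the heavy chain transcripts changed along with their amount. Levels of different genes were set side by side per kilobase of each gene's main transcript, and the shares that follow are of the summed normalised count per kb of the 5 heavy chains. HLA-E was the most abundant heavy chain in WT, with 61.5% ± 0.659 of the sum (SD, n = 3), and HLA-B had 28.2% ± 0.338. CRISPR Control leaned further to HLA-E, with 70.2% ± 2.83 against 21.5% ± 1.68 for HLA-B. The shares came close in TIMP1 KO 1, at 43.6% ± 1.25 for HLA-E and 46.5% ± 1.06 for HLA-B. HLA-B led in TIMP1 KO 2, with 72.9% ± 0.810 against 18.8% ± 0.637 for HLA-E. The ratio of HLA-B to HLA-E per kb was 0.459 in WT, 0.307 in CRISPR Control, 1.07 in TIMP1 KO 1 and 3.89 in TIMP1 KO 2. HLA-C stayed between 5.36% and 7.78% of the sum in the means of the 4 lines, and HLA-F between 2.09% and 2.92%. HLA-E fell as a share while its own count rose.

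Light chain transcript was in excess of heavy chain transcript throughout. B2M stood at 10698 ± 396 normalised counts per kb in WT, 11246 ± 780 in CRISPR Control, 14937 ± 379 in TIMP1 KO 1 and 31655 ± 721 in TIMP1 KO 2. The summed heavy chains stood at 1379 ± 66.2, 1594 ± 174, 3354 ± 153 and 11589 ± 1362 per kb in the same order. B2M therefore exceeded the sum of these 5 heavy chains 7.76-fold ± 0.238 in WT, 7.09-fold ± 0.536 in CRISPR Control, 4.46-fold ± 0.255 in TIMP1 KO 1 and 2.75-fold ± 0.271 in TIMP1 KO 2. These ratios leave out heavy chains not analysed here and are relative to the annotated lengths. NLRC5 was the least abundant tested member per kb in each line, at 6.60 in WT and 78.4 in TIMP1 KO 2.

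**Figure D4:**
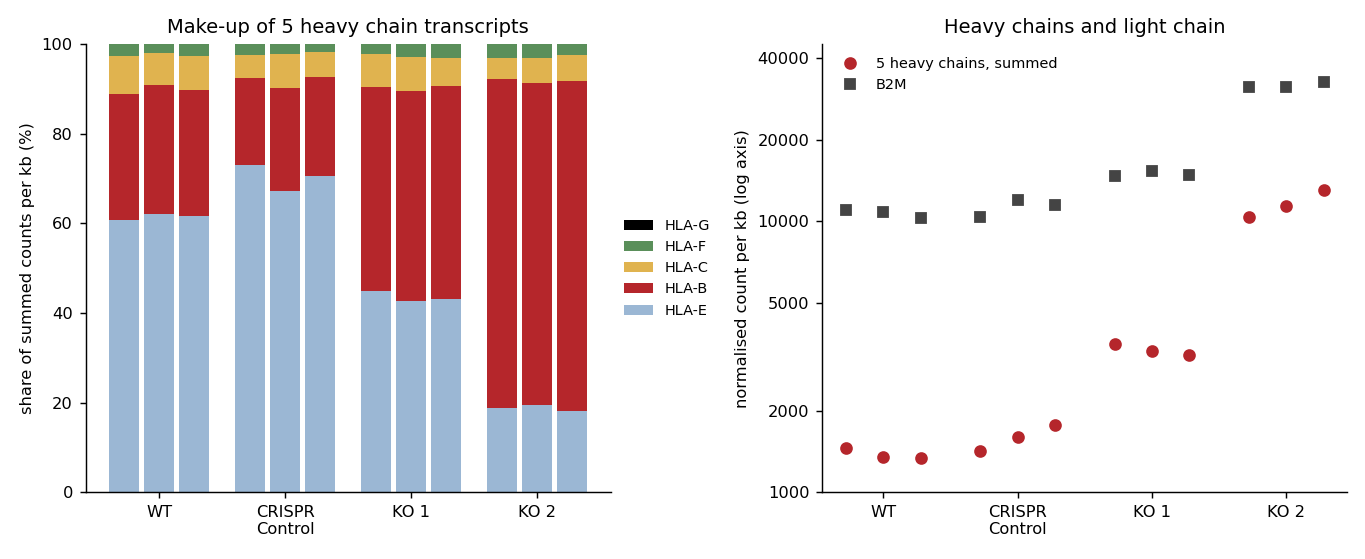
Left, share of the summed normalised count per kb taken by each of 5 heavy chains (y axis, percent) in each library (bars, 3 per line). Right, summed heavy chains and B2M per kb in the same libraries (log y axis). HLA-E takes 61.5% of the sum in WT and 18.8% in TIMP1 KO 2, and the gap between B2M and the heavy chains narrows from 7.76-fold to 2.75-fold.

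The peptide processing and loading genes moved with the heavy chains in part. Of 14 listed genes, all tested, 8 were called higher and none lower in TIMP1 KO 1 against WT (median log2 change 0.47), and 10 were higher and 3 lower in TIMP1 KO 2 (median 1.05). In CRISPR Control against WT 2 were higher and 6 lower (median -0.05). The shares of all tested genes called higher and lower were 18.0% and 17.5% in TIMP1 KO 1, 27.1% and 27.9% in TIMP1 KO 2, and 27.2% and 26.3% in CRISPR Control. ERAP2, which trims peptides in the endoplasmic reticulum, rose by 1.15 in TIMP1 KO 1 and 2.11 in TIMP1 KO 2 on the log2 scale (limma adjusted p = 2.97e-08 and 2.65e-12). TAPBPL, a peptide editor related to tapasin, rose by 1.21 and 2.08 (limma adjusted p = 0.000166 and 1.12e-07), and was lower in CRISPR Control (log2 change -1.99, limma adjusted p = 2.32e-07). PSMB8, a catalytic subunit of the immunoproteasome, rose by 0.70 and 1.87, and PSME1, a subunit of the proteasome activator PA28, by 0.74 and 1.28. In CRISPR Control against WT, PSMB8 was higher (log2 change 0.45, limma adjusted p = 0.000658) and PSME1 lower (log2 change -0.43, limma adjusted p = 0.000220), and ERAP2 was at 0.17 (limma adjusted p = 0.153). The chaperones CALR, CANX and PDIA3, which serve glycoprotein folding in general, were lower in TIMP1 KO 2, by log2 changes of -0.21, -0.23 and -0.27 (limma adjusted p = 0.0159, 0.0109 and 0.00476). CALR was also lower in CRISPR Control (log2 change -0.34, limma adjusted p = 0.000358).

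The 2 subunits of the peptide transporter differed from each other, and are named here after their values were seen. TAP1 averaged 2215 ± 159 normalised counts in the WT line, 2455 ± 201.3 in CRISPR Control, 2491 ± 61.4 in TIMP1 KO 1 and 5286 ± 258 in TIMP1 KO 2. Its log2 change against WT was 0.17 in TIMP1 KO 1 (limma adjusted p = 0.0883) and 1.26 in TIMP1 KO 2 (limma adjusted p = 1.10e-10). TAP2 changed by -0.05 in TIMP1 KO 1 and -0.11 in TIMP1 KO 2 (limma adjusted p = 0.544 in TIMP1 KO 2), neither of which passed the threshold.

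**Figure D5:**
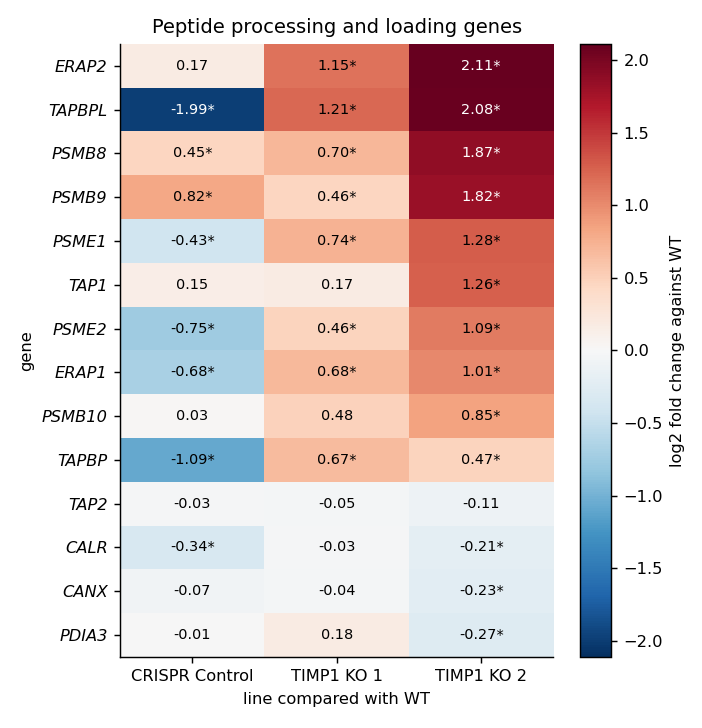
Log2 fold change against WT (colour and printed value) of 14 peptide processing and loading genes (rows) in CRISPR Control, TIMP1 KO 1 and TIMP1 KO 2 (columns); an asterisk marks a limma adjusted p below 0.05. ERAP2 and TAPBPL reach 2.11 and 2.08 in TIMP1 KO 2, and CALR, CANX and PDIA3 are lower there.

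Factors that act on class I promoters were called in both directions. Of 19 listed regulators, 4 were called higher and 2 lower in TIMP1 KO 1 against WT, 6 higher and 7 lower in TIMP1 KO 2, and 6 higher and 7 lower in CRISPR Control, and the list medians were 0.04, 0.01 and 0.12. Among all tested genes 18.0% were higher and 17.5% lower in TIMP1 KO 1, 27.1% and 27.9% in TIMP1 KO 2, and 27.2% and 26.3% in CRISPR Control, so these counts were near the background. IRF9, the DNA-binding part of the interferon complex ISGF3, rose by 1.20 in TIMP1 KO 1 and 2.24 in TIMP1 KO 2 on the log2 scale (limma adjusted p = 0.000518 and 1.66e-07). Its partner STAT2 rose by 0.61 and 1.29, and both were lower in CRISPR Control than in WT, by log2 changes of -0.76 for IRF9 and -0.71 for STAT2. IRF1, an activator of class I, rose by 0.44 and 1.46 in the 2 clones and by 0.52 in CRISPR Control. Its relative IRF2 rose by 0.62 and 0.71 in the clones and was lower in CRISPR Control (log2 change -0.23, limma adjusted p = 0.0269). EZH2, the methyltransferase of the repressive Polycomb complex PRC2, fell by 0.51 in TIMP1 KO 1 and by 1.07 in TIMP1 KO 2, and was also lower in CRISPR Control (log2 change -0.28, limma adjusted p = 0.00218). The NF-Y subunits NFYA, NFYB and NFYC were lower in TIMP1 KO 2 by log2 changes of -0.48, -0.55 and -0.49. In CRISPR Control against WT, NFYA was as low (log2 change -0.53, limma adjusted p = 1.51e-05), NFYB was at 0.04 (limma adjusted p = 0.730) and NFYC was higher (log2 change 0.26, limma adjusted p = 0.0132). RFX5, which anchors NLRC5 and CIITA complexes to promoters, did not pass the threshold in either clone.

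Class I-like genes and class II genes were read for comparison. Of 13 class I-like genes 9 were tested, and 3 were higher and 1 lower in TIMP1 KO 1 against WT (median log2 change 0.29), 5 higher and none lower in TIMP1 KO 2 (median 0.62), and 3 higher and 5 lower in CRISPR Control (median -0.40). Of all tested genes 35.5%, 55.0% and 53.4% were called in either direction in these comparisons, so in the clones the number called was near the background. By direction, 18.0% were higher and 17.5% lower in TIMP1 KO 1, and 27.1% and 27.9% in TIMP1 KO 2. In CRISPR Control 27.2% of tested genes were higher and 26.3% lower. ULBP1, a stress ligand of the natural killer cell receptor NKG2D, rose by 1.14 and 2.17 in the 2 clones and also by 1.64 in CRISPR Control (limma adjusted p = 7.88e-08). ULBP2, a ligand of the same receptor, was lower in TIMP1 KO 1 (log2 change -0.65, limma adjusted p = 0.0135) and higher in TIMP1 KO 2 (log2 change 1.71, limma adjusted p = 5.31e-07). MR1, which presents vitamin metabolites to T cells, rose by 1.64 in TIMP1 KO 2, and its change of 0.29 in TIMP1 KO 1 had a limma adjusted p of 0.119. HFE, a class I-like regulator of iron uptake, rose by 0.45 in TIMP1 KO 1 and by 0.21 in TIMP1 KO 2 (limma adjusted p = 0.000408 and 0.0478). Both were lower in CRISPR Control than in WT, by log2 changes of -0.68 for MR1 and -1.003 for HFE. ULBP2 was higher there (log2 change 0.70, limma adjusted p = 0.00527).

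Of 11 class II genes only CD74, the invariant chain, reached the tested set. CD74 averaged 5.29 normalised counts in the WT line, 25.8 in CRISPR Control, 7.40 in TIMP1 KO 1 and 110 in TIMP1 KO 2. It was higher in TIMP1 KO 2 (log2 change 4.14, limma adjusted p = 1.06e-08) and in CRISPR Control (log2 change 2.07, limma adjusted p = 6.89e-05) than in WT, and its change of 0.30 in TIMP1 KO 1 did not pass the threshold. HLA-DPA1, named after its values were seen, had 17.2 to 28.1 normalised counts in TIMP1 KO 2 and at most 3.30 in any other library. HLA-DRA did not exceed 1.10 in any library.

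Interferon-stimulated genes outside the antigen presentation pathway were counted beside the class I genes. Of 20 listed genes 19 were tested, and 14 were called higher in TIMP1 KO 1 against WT (median log2 change 0.98), 19 in TIMP1 KO 2 (median 4.35) and 7 in CRISPR Control, where 8 were lower (median 0.00). None was called lower in either clone. Some listed genes reached the tested set only through their counts in TIMP1 KO 2, so their calls there followed from the filter. Named after their values were seen, GBP1 averaged 0.68 normalised counts in WT and 70.3 in TIMP1 KO 2, and IFI44 5.17 and 494. The 19 called in TIMP1 KO 2 and the median of 4.35 include such genes. Of all tested genes 18.0% were called higher and 17.5% lower in TIMP1 KO 1, and 27.1% and 27.9% in TIMP1 KO 2. In CRISPR Control 27.2% were called higher and 26.3% lower. The list was written with earlier results of these data known.

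The genes most alike in pattern to 3 of the members were found by Pearson's r of log2(value + 1) over the 12 libraries among 11636 other genes with a mean of at least 100. The libraries fall into 4 lines, so the r values describe the pattern across lines. For HLA-B these were APOL1 and ALDH1A3 (r = 0.993 each) and OAS2 (r = 0.991). For B2M they were ISG15 (r = 0.995), CMPK2 and SDC4 (r = 0.992 each), and for NLRC5 TRIM21 (r = 0.993), OPTN (r = 0.991) and USP18 (r = 0.987). Known interferon-induced genes among these include OAS2, ISG15, CMPK2, TRIM21 and USP18. Among the tested members themselves r lay between 0.932 and 0.990.

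Markers of white blood cells, which carry much class I, were read in the same libraries. A list of 8 such markers summed to 69.0 to 86.7 normalised counts in WT, 61.3 to 80.7 in CRISPR Control, 117 to 140 in TIMP1 KO 1 and 246 to 296 in TIMP1 KO 2. The sum rose in the knockout lines as the class I genes did, and this rise lay in CD14 and ITGAM. CD14 was the highest of the 8 markers in each line, with means of 36.2, 36.5, 83.0 and 161 in the same order, and ITGAM had means of 18.8, 13.3, 37.2 and 91.7. Of the other markers, PTPRC and LYZ had their highest mean in WT, and CD79A and TYROBP in CRISPR Control. LYZ was at or below 6 reads and TYROBP at or below 3 reads in every library, so the order of such low means carries little weight. The defining marker of all white blood cells, PTPRC (CD45), was at or below 9 reads in every library, and CD3E was at or below 2 reads and at 0 in all libraries of WT, CRISPR Control and TIMP1 KO 1. Whether CD14 and ITGAM bear on the class I counts was not tested. At most 3 reads were found for 3 of the 8 markers in all WT libraries and for 4 of the 8 in all libraries of each other line.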

How the data were processed

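RNA from 12 MIA PaCa-2 libraries was sequenced as paired reads. According to the methods and the labels, the authors trimmed reads with Cutadapt, aligned them to GRCh38 with STAR, took gene counts from featureCounts, and normalised them by the size factors of DESeq2; the annotation release and strand setting are not given in the sources used here. The deposited values are this normalised signal. All positive values were whole multiples of one step per library, within 0.01 reads, so whole reads were recovered. A row with no gene ID and 4 columns of values that match no sample were left out.

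Genes with a mean of at least 10 (15987 of 63086, 99.9% of reads) were tested on log2(value + 1) with limma 3.58.1 in R 4.3.3, in 1 fit of all 12 libraries with a mean per line, trended variances, two-sided tests and Benjamini-Hochberg adjustment at 0.05. Both tools for counts, edgeR 4.0.16 and DESeq2 1.42.0, were run on the recovered reads as alternatives, beside other pseudocounts, filters, scalings and fits. The scripts were tested on simulated data. Gene positions and main transcript lengths came from GENCODE v44 (61547 of 63086 IDs matched with version) and promoters from RefSeq. Depth was 26908701 to 36093563 reads per library; counts cover sampling error only.

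Named beside the members are TIMP1, for each list the 3 genes with the largest called change in each knockout line against WT and those that moved against their list, and the 3 genes most alike to HLA-B, B2M and NLRC5; 1 gene that the rule names is not reported here. The members, lists and rules were chosen with earlier results of these data known. Replicates were labelled as biological; nothing says more of how cultures were separated, so p-values measure the spread between these libraries.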

Additional observations from a re-analysis of the deposited data

Results flagged for a closer look

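The change against WT differed between the 2 knockout clones for every tested class I gene, by the test of TIMP1 KO 2 against TIMP1 KO 1. The log2 change was larger in TIMP1 KO 2 by 2.43 for HLA-B, 1.38 for HLA-C, 0.57 for HLA-E, 1.84 for HLA-F, 1.08 for B2M and 1.96 for NLRC5 (limma, largest adjusted p = 3.66e-05), and all 3 TIMP1 KO 2 libraries lay above all 3 TIMP1 KO 1 libraries for each gene. Single-library outliers were not looked for, since each line has 3 libraries.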

How the results depend on the processing

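The count of class I genes called stayed at 6 under every alternative run in each comparison other than CRISPR Control against WT, where it was 2, and 3 without CRISPR Control replicate 3. Over all comparisons, 869 of the values for single genes kept their direction and side of the threshold. Direction changed in 6 values, and 1 came to pass the threshold. The exceptions lay in CRISPR Control against WT. HLA-F, at 0.01, became -0.013 with equal library totals, -0.015 with edgeR, -0.15 without WT replicate 2, -0.01 without CRISPR Control replicate 1 and -0.03 without CRISPR Control replicate 2. HLA-F ranged from -0.15 to 0.10 and HLA-C from -0.32 to 0.066 when 1 library was left out, HLA-C being at 0.066 without CRISPR Control replicate 1. HLA-B passed the threshold at -0.29 without CRISPR Control replicate 3. The cause was not tested. Leaving out 1 library at a time, the change of HLA-B in TIMP1 KO 2 against WT ranged from 4.34 to 4.51 and that of HLA-E in TIMP1 KO 1 against CRISPR Control from 0.33 to 0.47. With no filter on low values the share of genes called in TIMP1 KO 1 against WT was 14.8%, in TIMP1 KO 2 against WT 25.9% and in CRISPR Control against WT 24.9%, because more genes were tested. With the replicate number as a block, 6 members were called in TIMP1 KO 1 against WT and 2 in CRISPR Control against WT, as without it, and the block changed no other call of a class I gene. Deviations from the line means were correlated between libraries of different lines, at r = -0.13 to 0.16 for same-number pairs and -0.19 to 0.13 for other pairs. Of 18 same-number pairs 2 correlated above 0.1, and 6 of 12 libraries correlated best with their own number. Because these ranges overlap, whether the numbers mark a pairing cannot be told from them. Depth limits HLA-G, which had at most 1 read in a library.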
